A study of Mus musculus with 4 samples.

Results

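The genes of the lysosomal proton pump, the cathepsin proteases and the lysosome-associated membrane proteins (LAMPs) were followed in mouse oocytes with and without a knockdown of Ell3. Members were all gene symbols of the count tables that begin with Atp6v or Atp6ap, that consist of Cts and 1 letter, or that are Lamp with a digit from 1 to 5. This gave 48 of 53677 symbols: 13 of the V1 sector of the vacuolar-type ATPase (V-ATPase), 10 of its V0 sector, 3 of its accessory subunits, 18 cathepsins and 4 LAMPs. The a3 subunit of V0 carries the symbol Tcirg1 and was read beside them as a non-member.

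The oocytes came from mice and were at the germinal vesicle (GV) stage, that is, fully or nearly grown and still arrested in the first meiotic prophase. All females had been given 7.5 IU of the gonadotropin PMSG 48 h earlier. The groups were control oocytes (Ctrl) and oocytes with the Ell3 knockdown (Ell3 KD), with 2 libraries each, every library a pool of 5 oocytes. The sources used here do not give strain, age, the control treatment, the method of knockdown or whether replicates came from separate animals, so p-values measure the spread between these libraries only, which may be technical.

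The V-ATPase pumps protons into endosomes, lysosomes and secretory vesicles. Its cytosolic V1 sector binds and splits ATP, its membrane sector V0 carries the protons, and several subunits exist as isoforms made from separate genes that differ between tissues. Cathepsins are proteases, most of them active at the low pH that the pump makes, and LAMPs are heavily glycosylated proteins that line the lysosomal membrane. In growing and maturing oocytes, endosomes and lysosomes take up and break down protein and organelles.

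The Ctrl libraries held 45131278 and 48669267 counts, and the Ell3 KD libraries, both deeper, held 89632815 and 65722415. Values are CPM (counts per 1000000 of the library total adjusted by TMM factors). A gene with 0 counts lay below 0.0339 to 0.0657 CPM, depending on the library, taking 3 counts as the limit; this covers counting error only. The targeted gene Ell3 was lower in both Ell3 KD libraries, at 2.88 and 2.80 CPM against 8.12 and 9.79 CPM in Ctrl (log2 fold change -1.66 ± 0.14, SE; edgeR adjusted p = 6.04e-10). Ell3 and Serinc4 lie on the same strand and overlap over 65.6% of the exon bases of Ell3. All 12 oocyte markers examined were present, with Zp3, which encodes a zona pellucida protein, at 7365 to 7441 CPM. Of the 12, 3 were higher and 4 lower in Ell3 KD by edgeR adjusted p under 0.05. Of all genes at a mean of 5 CPM or more, 52.5% were called either way. Dppa3 rose by 0.49 on the log2 scale (SE 0.03) and Oosp1 by 0.46 (SE 0.03), while Zp1 fell by 0.12 (SE 0.03). Of 14 macrophage and blood markers 8 had no count in any library, Lyz2, Adgre1 and Tyrobp among them. All changes are shares of a library, so fewer cells of a type and less RNA per cell cannot be told apart, nor would a change in total RNA be seen.

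Of the 48 genes 35 had enough counts to be tested, 14 were higher and 9 were lower in Ell3 KD, and 12 did not pass the test (edgeR quasi-likelihood test, Benjamini-Hochberg adjusted p under 0.05 over 17879 genes). Of all genes tested, 42.9% were called in this comparison, 21.1% as higher and 21.8% as lower. These shares are the ones to set beside the counts of calls given below for each sector, family and list. Among the 22 members at a mean of 5 CPM or more, 10 were higher and 4 lower. Of the 9704 genes at that level 52.5% were called, 27.2% as higher and 25.3% as lower. Both Ell3 KD libraries lay above both Ctrl libraries for 16 of the 35 genes and below them for 12, while over all genes tested this held for 35% and 35.7%. The median log2 fold change was 0.06 over the 35 genes and -0.0024 over all genes tested. Of the 35, 4 (Ctsf, Ctsc, Ctsm and Atp6v0d2) passed the low-count filter through the Ctrl libraries alone, which favours a call, and 3 of these were called.

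**Figure D1:**
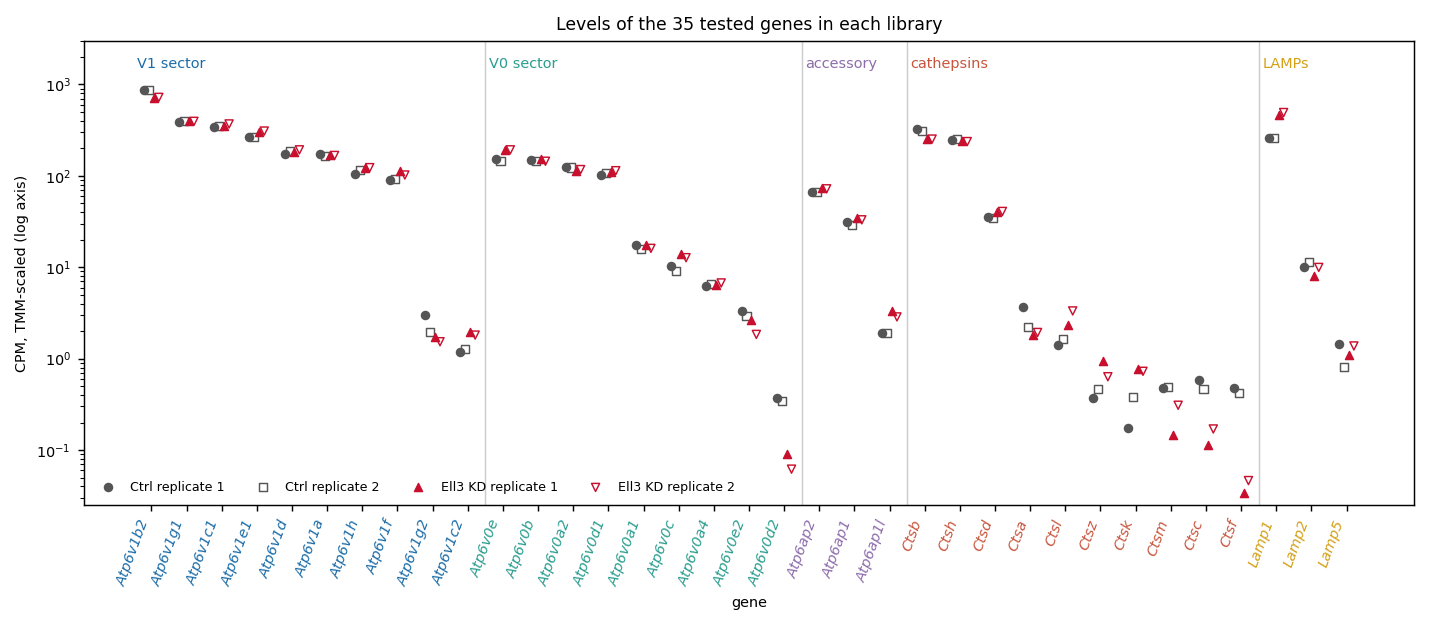
CPM of the 35 tested genes in each of the 4 libraries on a log axis, ordered by mean CPM within V1, V0, accessory subunits, cathepsins and LAMPs. Lamp1 sits near 258 CPM in both Ctrl libraries and at 465 and 492 CPM in the Ell3 KD libraries. Of the 22 tested V-ATPase and accessory genes, 11 lie above both Ctrl libraries in both Ell3 KD libraries, 5 lie below and 6 overlap. Over all genes tested, 35% lay above and 35.7% below.

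Lamp1, which encodes a major protein of the lysosomal membrane, had the largest change of the 22 members at 5 CPM or more. It is on chromosome 8 from 13159161 to 13175338 on the plus strand of GRCm38. It was counted at 257 and 258 CPM in Ctrl and at 465 and 492 CPM in Ell3 KD. Both knockdown libraries were thus far above both controls, and the gap was many times the spread within a group. The rise was 1.86-fold, with a log2 fold change of 0.89 ± 0.03 (SE; 95% interval 0.82 to 0.96; edgeR adjusted p = 2.10e-17). Of the 9704 genes at that level, 71 had a larger absolute change. The call held under all 12 alternatives tried, including an assumed coefficient of variation of 0.2 between libraries (adjusted p = 0.0237 by the likelihood-ratio test of edgeR).

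Grtp1, on the other strand, overlaps 9.31% of the exon bases of Lamp1, and the sources used here do not say whether counting used strand. Grtp1 was also higher, at 5.51 and 5.49 CPM in Ctrl and 7.88 and 8.57 CPM in Ell3 KD (log2 fold change 0.58 ± 0.12, SE; edgeR adjusted p = 3.42e-04). The mean of Lamp1 went from 258 ± 0.638 to 478 ± 19.1 CPM (SD, n = 2 per group, as for all values given with ± and not marked SE). The part of reads from Grtp1 in the rise of Lamp1 was not tested.

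The sequence before the Lamp1 start site is shown because Lamp1 had the largest change among the abundant members. RefSeq start sites with 250 bases before and 50 bases after them were on hand for 36 of the 48 genes. Letters were searched for the E-box core CACGTG, its own reverse complement and so read on both strands at once, which is the center of the element described for lysosomal genes and bound by factors of the TFEB and TFE3 family. Capitals mark each match in the 250 bases before the start site of Lamp1 (chr8:13158911-13159160, GRCm38.p6, plus strand, from RefSeq), printed 5′ to 3′.
Lamp1: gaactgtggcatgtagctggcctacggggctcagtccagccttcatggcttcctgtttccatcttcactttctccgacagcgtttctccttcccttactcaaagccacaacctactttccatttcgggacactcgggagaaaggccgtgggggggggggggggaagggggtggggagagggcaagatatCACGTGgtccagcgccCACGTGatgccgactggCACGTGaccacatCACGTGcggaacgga

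The Lamp1 window held 4 copies of the core, the first base of each lying 61, 45, 28 and 15 bases before the start site. Only 8 of 32851 promoter windows of the same length held 4 copies or more, and Lamp1 was the single member among them. At least 1 copy was found for 9 of the 36 members (25.0%), beside 8.09% of all 27025 symbols with a window and 881 of the 7350 symbols that were tested at 5 CPM or more. By call, this was 5 of 12 members called higher, 2 of 4 called lower and 2 of 10 tested without a call, so matches stood in front of genes of every kind. The longer palindrome TCACGTGA, which contains the core, was found for 5 members (13.9%) and for 1.12% of all symbols. At 5 CPM or more it was found for 4 of 15 members (26.7%) and for 2.31% of the symbols tested. A match describes the letters only and shows no binding.

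Members with the 8-base palindrome are printed as 30-base windows of the plus or minus strand on which the gene lies, with the E-box core in capitals, to show how alike the sites are in genes that moved in different ways (GRCm38.p6, from RefSeq).
Ctsd, called higher, chr7:142387908-142387937, minus strand: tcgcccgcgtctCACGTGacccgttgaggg
Atp6v0d1, called higher, chr8:105566050-105566079, minus strand: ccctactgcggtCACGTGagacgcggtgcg
Atp6v0e, called higher, chr17:26676387-26676416, plus strand: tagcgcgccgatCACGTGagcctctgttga
Atp6v1a, not called, chr16:44139373-44139402, minus strand: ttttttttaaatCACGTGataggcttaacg
Ctsa, called lower, chr2:164833749-164833778, plus strand: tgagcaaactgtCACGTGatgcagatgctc
Ctsa held a second palindrome 6 bases after its start site. The core and its flanks of T and A are shared by these 5 sites by construction of the search, and the bases around them differ.

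**Figure D2:**
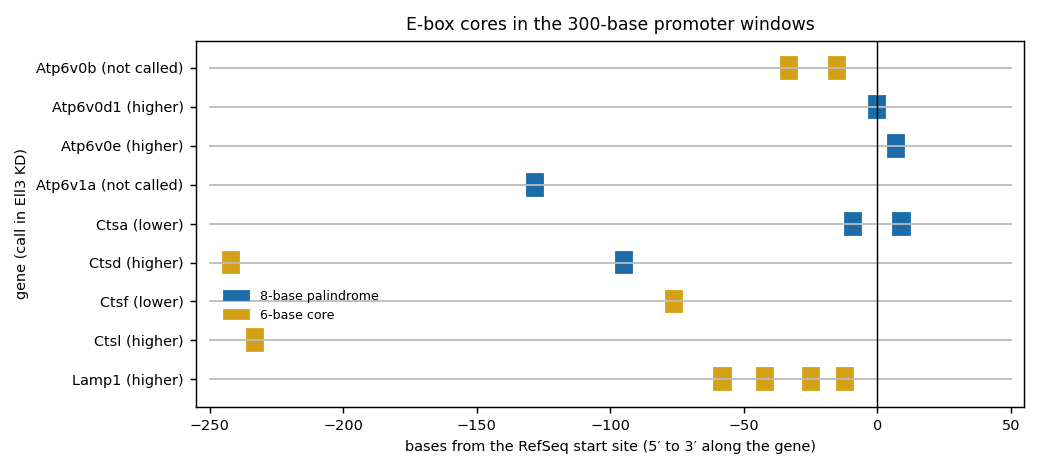
Position of each E-box core, in bases from the RefSeq start site, in the 300-base windows of the 9 members with at least 1 copy; blue boxes are within the 8-base palindrome, yellow boxes are the 6-base core alone, and the call in Ell3 KD follows each gene name. The 4 copies of Lamp1 lie within 61 bases before its start site.

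No other LAMP gene was called. Lamp2, which encodes the LAMP used in chaperone-mediated autophagy, was at 9.98 and 11.3 CPM in Ctrl and 8.09 and 9.95 CPM in Ell3 KD. Its groups did not overlap by a narrow margin, and its log2 fold change of -0.25 ± 0.11 (SE; 95% interval -0.47 to -0.02) missed the threshold at edgeR adjusted p = 0.0715. It passed as lower with library totals as the only scaling (adjusted p = 0.0379), without Ctrl replicate 1 (adjusted p = 0.020) and without Ell3 KD replicate 2 (edgeR adjusted p = 0.0149). Lamp5, known from neurons and dendritic cells, was at 1.44 and 0.81 CPM in Ctrl and 1.11 and 1.38 CPM in Ell3 KD and overlapped between groups (edgeR adjusted p = 0.748). Lamp3 had 1 to 8 counts per library and was not tested. Per kb of the longest annotated transcript, the level of Lamp1 was 41.7 and 36.8 times that of Lamp2 in the Ctrl libraries and 92.9 and 80.0 times in the Ell3 KD libraries. The difference between the changes of Lamp1 and Lamp2 was not tested.

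The V1 sector took most of the counts of the pump: its genes summed to 2415 and 2434 CPM in Ctrl and 2335 and 2379 CPM in Ell3 KD, and those of V0 to 567 and 553 against 608 and 605 CPM. Of its 13 genes 10 were tested, 4 were higher and 2 lower. Its ATP-splitting head is built of A subunits, which hold the catalytic sites, and B subunits. Atp6v1b2, the B2 isoform, was the most abundant member by CPM, at 874 and 866 CPM in Ctrl and 702 and 720.4 CPM in Ell3 KD. Both Ell3 KD libraries were lower than both Ctrl libraries by far more than the replicates differed, a fall of 0.29 on the log2 scale (SE 0.03; edgeR adjusted p = 9.89e-09). Atp6v1a, the catalytic A subunit, was at 172 and 166 CPM in Ctrl and 167 CPM in both Ell3 KD libraries. Its interval of -0.09 to 0.06 (log2 fold change -0.02) contained 0. Per kb, the ratio of Atp6v1b2 to Atp6v1a was 7.64 and 7.82 in Ctrl and 6.31 and 6.47 in Ell3 KD. The other B isoform, Atp6v1b1, known from kidney and inner ear, had no count in any library.

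Atp6v1e1, Atp6v1f and Atp6v1h were the V1 genes of high level that rose. Atp6v1e1 encodes a subunit of the peripheral stalks and was at 267 and 263 CPM in Ctrl and 298 and 309 CPM in Ell3 KD (log2 fold change 0.20 ± 0.03, SE; edgeR adjusted p = 2.95e-05). Atp6v1f, of the central stalk, was at 89.3 and 92.9 CPM in Ctrl and 112 and 102 CPM in Ell3 KD (0.23 ± 0.04, SE; edgeR adjusted p = 1.58e-04). In both genes the groups stood apart, though by less than the 1.86-fold of Lamp1. Atp6v1h, a regulatory subunit, was at 106 and 115 CPM in Ctrl and 120.4 and 123 CPM in Ell3 KD (0.14 ± 0.04, SE; edgeR adjusted p = 0.00702). Without Ctrl replicate 1, its lower Ctrl library, Atp6v1h was not called (log2 fold change 0.08, edgeR adjusted p = 0.155).

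Several V1 genes gave no call at high depth. Atp6v1g1, a stalk subunit, was at 388 and 396 CPM in Ctrl and 399 and 394 CPM in Ell3 KD, and the 95% interval of its log2 fold change was -0.05 to 0.08. Atp6v1c1, of the connection between the sectors, was at 340.1 and 347 CPM in Ctrl and 351 and 369 CPM in Ell3 KD, without overlap but short of the threshold (log2 fold change 0.07 ± 0.03, SE; edgeR adjusted p = 0.108). Atp6v1d, of the central stalk, was at 175 and 185 CPM in Ctrl and at 183 and 192 CPM in Ell3 KD, so its groups overlapped (edgeR adjusted p = 0.197).

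**Figure D3:**
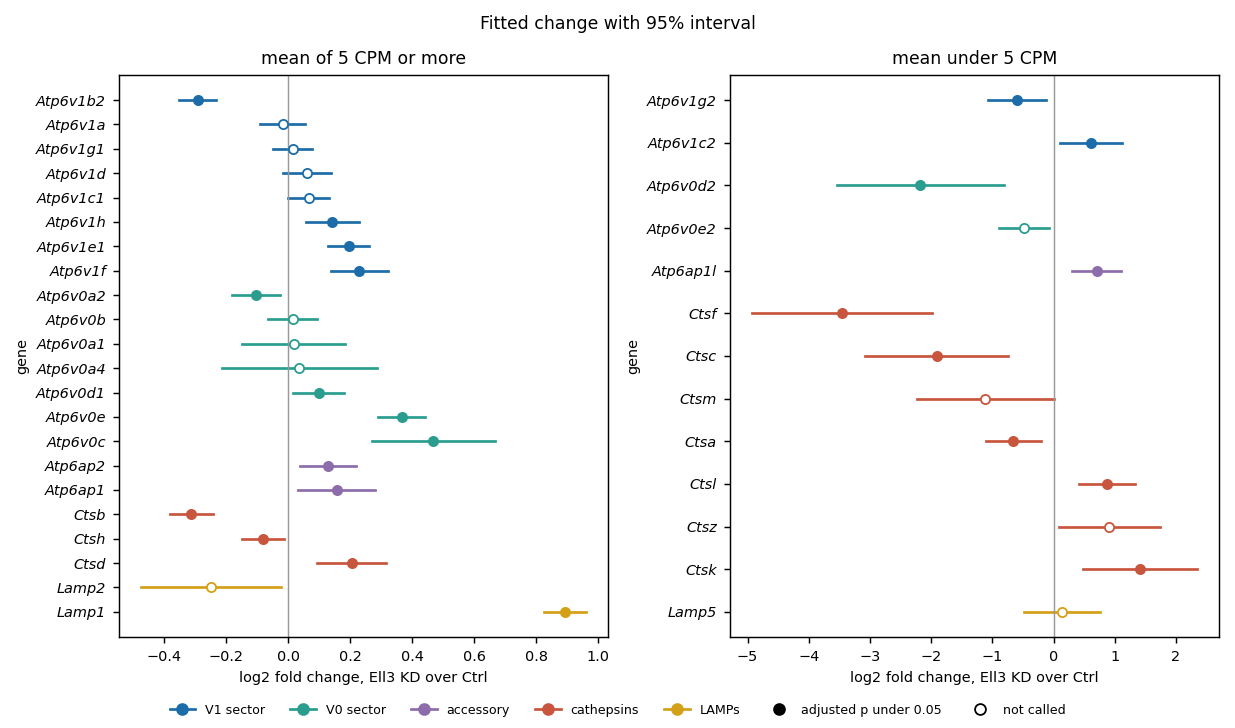
Fitted log2 fold change, Ell3 KD over Ctrl, of the 22 members at 5 CPM or more (left) and the 13 tested members below that (right); bars are 95% intervals and filled points passed an edgeR adjusted p under 0.05. Lamp1, at 0.89, stands apart on the left, and the intervals on the right are several times wider.

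The minor V1 isoforms were at a small part of the level of their partners. Atp6v1c2 was at 1.18 and 1.28 CPM in Ctrl and 1.94 and 1.81 CPM in Ell3 KD, and Atp6v1g2, known from brain, at 3.02 and 1.97 against 1.74 and 1.53 CPM. Atp6v1c2 was called higher and Atp6v1g2 lower, with log2 fold changes of 0.61 ± 0.24 and -0.60 ± 0.23 (SE; edgeR adjusted p = 0.0443 and adjusted p = 0.0377). Both calls hung on single libraries and on the method. Neither was made by DESeq2 or limma-voom. The call of Atp6v1c2 was also lost with library totals as the only scaling and with counts thinned to the shallowest library. Atp6v1c2 was not called without Ctrl replicate 1 or 2 (adjusted p = 0.119 and 0.0616) or Ell3 KD replicate 1 or 2 (adjusted p = 0.196 and 0.0960, edgeR). Atp6v1g2 was not called without Ctrl replicate 1 (log2 fold change -0.26, adjusted p = 0.477), Ell3 KD replicate 1 (adjusted p = 0.0534) or Ell3 KD replicate 2 (adjusted p = 0.149, edgeR). Per kb, Atp6v1c1 made up 98.9% ± 0.0434 of the 2 C isoforms in Ctrl and 98.4% ± 0.136 in Ell3 KD, and Atp6v1g1 99.6% and 99.8% of the G isoforms. Atp6v1e2, the testis isoform of E, had no count in Ctrl and 10 and 12 counts in Ell3 KD, and Atp6v1g3 had none in any library.

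In the V0 sector, 9 of 10 genes were tested, 3 were higher and 2 lower. Atp6v0e, the small e1 subunit, was at 153 and 144 CPM in Ctrl and 190.3 and 192 CPM in Ell3 KD, a 1.29-fold rise (log2 fold change 0.37 ± 0.04, SE; edgeR adjusted p = 1.41e-08). Atp6v0c, the c subunit of the ring, was at 10.3 and 9.04 CPM in Ctrl and 13.9 and 12.7 CPM in Ell3 KD (0.47 ± 0.10, SE; edgeR adjusted p = 3.22e-04). For both genes the groups were clearly apart. Atp6v0b, the c'' subunit of the same ring, was at 149 and 145 CPM in Ctrl and 153 and 144 CPM in Ell3 KD, with full overlap (log2 fold change 0.02, 95% interval -0.06 to 0.09). Of the ring genes, then, Atp6v0c was called and Atp6v0b was not. Intron-less copies of Atp6v0c could share its reads. The named one, Atp6v0c-ps1, had 1 count in all libraries together, which does not tell whether shared reads were dropped.

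Atp6v0d1, the d1 subunit between the stalk and the ring, was at 103 and 106 CPM in Ctrl and 110.3 and 114 CPM in Ell3 KD (log2 fold change 0.10 ± 0.04, SE; edgeR adjusted p = 0.0474). Atp6v0a2, the most abundant a subunit, went the other way, from 125 and 123 to 114 and 117 CPM (-0.10 ± 0.04, SE; edgeR adjusted p = 0.0299). These changes were under 1.1-fold, and neither was called by DESeq2. Atp6v0d1 was also not called by limma-voom or with library totals as the only scaling. Atp6v0a2 was also not called without the low-count filter or with counts thinned to the shallowest library. Both calls were further lost without some single libraries. For Atp6v0d1 these were Ctrl replicate 1 (adjusted p = 0.235), Ell3 KD replicate 1 (adjusted p = 0.0791) and Ell3 KD replicate 2 (edgeR adjusted p = 0.272). For Atp6v0a2 they were Ctrl replicate 1 (adjusted p = 0.0829), Ell3 KD replicate 1 (adjusted p = 0.271) and Ell3 KD replicate 2 (edgeR adjusted p = 0.0809). Atp6v0a1 (16.5 ± 1.15 and 16.7 ± 0.881 CPM) and Atp6v0a4 (6.41 ± 0.306 and 6.58 ± 0.208 CPM) overlapped between groups and were not called (edgeR adjusted p = 0.877 and 0.839).

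The share of the a isoforms, which direct the pump to different membranes, was much alike in the 4 libraries. Per kb, Atp6v0a2 made up 79.0% and 80.0% of the a isoforms in Ctrl and 76.8% and 78.4% in Ell3 KD, Atp6v0a1 13.1% to 15.0% and Atp6v0a4 6.35% to 7.29%. Tcirg1, the a3 isoform of osteoclasts, was at 22, 1, 87 and 23 counts, or 0.481 and 0.0203 CPM in Ctrl and 0.982 and 0.356 CPM in Ell3 KD and was not called (edgeR adjusted p = 0.0630). Atp6v0e2 was at 3.35 and 2.96 CPM in Ctrl and at 2.64 and 1.84 CPM in Ell3 KD and missed the threshold (log2 fold change -0.48 ± 0.20, SE; edgeR adjusted p = 0.0533). It passed with library totals as the only scaling (adjusted p = 0.0382), without Ctrl replicate 2 (adjusted p = 0.0298) and without Ell3 KD replicate 1 (edgeR adjusted p = 0.0129). Atp6v0d2, the d isoform of osteoclasts and kidney, had 17 and 17 (Ctrl) and 8 and 4 (Ell3 KD) counts. It was called lower (-2.18 ± 0.67, SE; edgeR adjusted p = 0.00979), but with any 1 of the 4 libraries left out it was not (edgeR adjusted p = 0.0662 to 0.157).

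**Figure D4:**
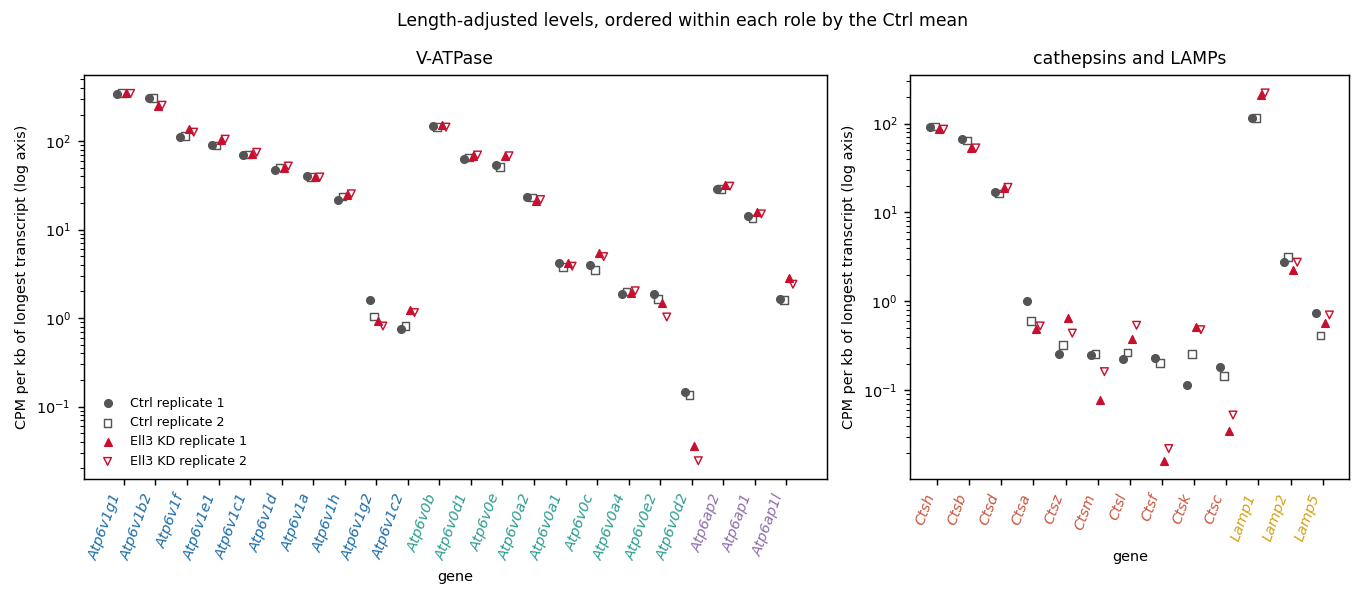
CPM per kb of the longest annotated transcript for the tested members in each library, on log axes, ordered within each role by the Ctrl mean. Atp6v1g1, Atp6v1b2, Atp6v0b, Ctsh and Lamp1 lead, and Atp6v0c, which may have lost reads shared with intron-less copies, lies far below Atp6v0b.

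All 3 accessory genes were called higher. Atp6ap2, also known as the prorenin receptor, was at 66.8 and 66.5 CPM in Ctrl and 73.6 and 72.0 CPM in Ell3 KD (log2 fold change 0.13 ± 0.04, SE; edgeR adjusted p = 0.0207). Atp6ap1, the Ac45 subunit, was at 31.3 and 29.1 CPM in Ctrl and 34.4 and 33.0 CPM in Ell3 KD (0.16 ± 0.06, SE; edgeR adjusted p = 0.0367). Atp6ap1l, a gene similar to Atp6ap1, was at 1.93 and 1.90 CPM in Ctrl and 3.35 and 2.86 CPM in Ell3 KD (0.70 ± 0.19, SE; edgeR adjusted p = 0.00434). Atp6ap1 and Atp6ap2 were not called by DESeq2 or with library totals as the only scaling. Atp6ap1 was also not called with counts thinned to the shallowest library. No Ell3 KD library of the 3 genes reached down to a Ctrl library, yet each call depended on the libraries used. Without Ell3 KD replicate 1 none of them was called (adjusted p = 0.157 for Atp6ap2, 0.233 for Atp6ap1 and 0.0793 for Atp6ap1l, edgeR). Without Ctrl replicate 2 or Ell3 KD replicate 2, Atp6ap2 (adjusted p = 0.0696 and 0.0557) and Atp6ap1 (adjusted p = 0.282 and 0.0547, edgeR) were not called; the log2 fold change of Atp6ap1 without Ctrl replicate 2 was 0.10.

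By length-adjusted level, the subunits of the pump were far from equal. In Ctrl, the V1 genes were led by Atp6v1g1 (346 CPM per kb) and Atp6v1b2 (308), followed by Atp6v1f (113), Atp6v1e1 (90.5), Atp6v1c1 (69.8), Atp6v1d (49.1), Atp6v1a (39.9) and Atp6v1h (22.8). No neighbours in this order overlapped in their Ctrl libraries. The V0 genes were led by Atp6v0b (147 CPM per kb), Atp6v0d1 (64.2), Atp6v0e (52.8) and Atp6v0a2 (23.2). Atp6v0c, of which a pump holds several copies, came sixth at 3.76 CPM per kb and overlapped with Atp6v0a1 at 3.97. Reads shared with intron-less copies may be missing from the count of Atp6v0c, so its level may be too low, which was not tested. With the mean length of the annotated transcripts in place of the longest, Atp6v1b2 came before Atp6v1g1, Atp6v1c1 before Atp6v1e1 and Atp6v1f, Atp6v0e before Atp6v0d1 and Atp6v0c before Atp6v0a1.

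Of the 18 cathepsins, 10 were tested, 3 higher and 5 lower, and 3 accounted for nearly all counts. These were Ctsh, Ctsb and Ctsd, with 91.8, 66.1 and 16.6 CPM per kb in Ctrl, against 0.807 for Ctsa, the next. Ctsb encodes cathepsin B, a cysteine protease, and was at 322 and 305 CPM in Ctrl and 253 and 252 CPM in Ell3 KD. It fell by 0.31 on the log2 scale (SE 0.03; edgeR adjusted p = 4.10e-08), with the groups well apart. Ctsd, the aspartic protease cathepsin D, rose, from 35.7 and 34.7 to 40.4 and 40.7 CPM (log2 fold change 0.20 ± 0.05, SE; edgeR adjusted p = 0.00349). Ctsh, a cysteine protease that trims peptide ends, was at 249 and 254 CPM in Ctrl and 239 and 237 CPM in Ell3 KD (-0.08 ± 0.03, SE; edgeR adjusted p = 0.0456). It was not called by DESeq2, with RLE in place of TMM factors, without the low-count filter or with counts thinned to the shallowest library. The call of Ctsh did not hold without Ctrl replicate 2 (adjusted p = 0.157), Ell3 KD replicate 1 (adjusted p = 0.161) or Ell3 KD replicate 2 (edgeR adjusted p = 0.248).

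Per kb, the level of Ctsb was 4.04 and 3.94 times that of Ctsd in Ctrl and 2.81 and 2.77 times in Ell3 KD. Both genes overlap another annotated gene. Fdft1, on the other strand, overlaps 12.8% of the exon bases of Ctsb and moved the other way (634 and 647 CPM in Ctrl, 727 and 737 CPM in Ell3 KD, log2 fold change 0.19 ± 0.03, SE; edgeR adjusted p = 6.33e-06). The annotated gene Gm49369, on the same strand, overlaps 34.4% of the exon bases of Ctsd. It has no entry among the symbols of the count tables, so no counts can be given for it.

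The remaining cathepsins were under 5 CPM, and what was called among them was carried by few reads. The annotated genes Gm49230, on the same strand, and Gm47123, on the other, overlap 26.8% of the exon bases of Ctsl, the gene of the cysteine protease cathepsin L. Neither has an entry among the symbols of the count tables. Ctsl was at 1.40 and 1.64 CPM in Ctrl and 2.31 and 3.33 CPM in Ell3 KD (log2 fold change 0.88 ± 0.22, SE; edgeR adjusted p = 0.00235). It was not called without Ell3 KD replicate 2 (edgeR adjusted p = 0.0951), the higher library. Ctsk, the cathepsin of osteoclasts, had 8 and 19 (Ctrl) and 69 and 47 (Ell3 KD) counts (1.41 ± 0.45, SE; edgeR adjusted p = 0.0139). The call of Ctsk was lost without Ctrl replicate 1 (adjusted p = 0.124), Ell3 KD replicate 1 (adjusted p = 0.104) or Ell3 KD replicate 2 (edgeR adjusted p = 0.0533). Ctsz had 17 and 23 (Ctrl) and 83 and 41 (Ell3 KD) counts and missed the threshold (edgeR adjusted p = 0.0704).

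Lower in Ell3 KD were Ctsa, Ctsc and Ctsf. Ctsa, a serine carboxypeptidase that protects other lysosomal enzymes, was at 3.68 and 2.21 CPM in Ctrl and 1.79 and 1.93 CPM in Ell3 KD (log2 fold change -0.66 ± 0.22, SE; edgeR adjusted p = 0.0187). Its highest value was that of Ctrl replicate 1, without which it was not called (log2 fold change -0.25, adjusted p = 0.474), nor was it without Ell3 KD replicate 1 (edgeR adjusted p = 0.0664). Without Ctrl replicate 2 its log2 fold change was -0.98. Ctsf had 22 and 21 (Ctrl) and 3 and 3 (Ell3 KD) counts (edgeR adjusted p = 3.34e-04). Like Ctsc, it entered the test through the Ctrl libraries alone. Ctsc, which activates granule proteases of immune cells, had 27 and 23 (Ctrl) and 10 and 11 (Ell3 KD) counts (edgeR adjusted p = 0.00814). It was not called without Ctrl replicate 1 (adjusted p = 0.0891) or Ell3 KD replicate 1 (edgeR adjusted p = 0.124). Beside these, the 14 macrophage and blood markers summed to 2.34 and 2.59 CPM in Ctrl and to 0.452 and 0.247 CPM in Ell3 KD, mostly from Mpo and Csf1r; Cd14, Fcer1g and Cd52 had 3 to 10 counts in each Ctrl library and 0 in both Ell3 KD libraries. The part of such cells in the falls of Ctsc and Ctsf was not tested.

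Markers of other ovarian cells moved in both directions. The 12 cumulus and granulosa markers summed to 49.8 and 47.8 CPM in Ctrl and 44.9 and 47.2 CPM in Ell3 KD, most of it Cyp19a1 (not called) and Nr5a2 (lower). Of the 7 tested, 2 were higher: Inha went from 0.941 and 1.13 to 2.18 and 2.47 CPM (log2 fold change 1.16 ± 0.24, SE; edgeR adjusted p = 3.63e-04), and Ptgs2 from 0.0657 and 0.304 to 1.21 and 1.42 CPM (2.79 ± 0.45, SE; edgeR adjusted p = 1.89e-05). Ptgs2 entered the test through the Ell3 KD libraries alone. Foxl2, Amh and Amhr2 had no count in Ctrl and 3 to 9 counts in each Ell3 KD library. The 10 markers of theca, stroma and endothelium summed to 72.6 and 68.2 CPM in Ctrl and 56.9 and 60.0 CPM in Ell3 KD, most of it Pecam1, which was lower. Dcn, a stromal proteoglycan gene, was higher, at 0.766 and 0.952 against 1.77 and 2.00 CPM (1.12 ± 0.27, SE; edgeR adjusted p = 0.00122). The part of these cells in the rises of Ctsl and Ctsk, and in the other changes of the lowly counted members, was not tested.

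The other cathepsins had few or no counts. Ctsg, Ctsj, Ctsq and Ctsr had no count in any library, Ctsw had 1 count in all, and Ctss, a mark of antigen-presenting cells, had 0 and 0 (Ctrl) and 1 and 4 (Ell3 KD) counts. Ctse and Ctso had 1 to 13 counts per library and were not tested. Ctsm, a placental cathepsin, had 13 to 24 counts and was not called (edgeR adjusted p = 0.102).

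**Figure D5:**
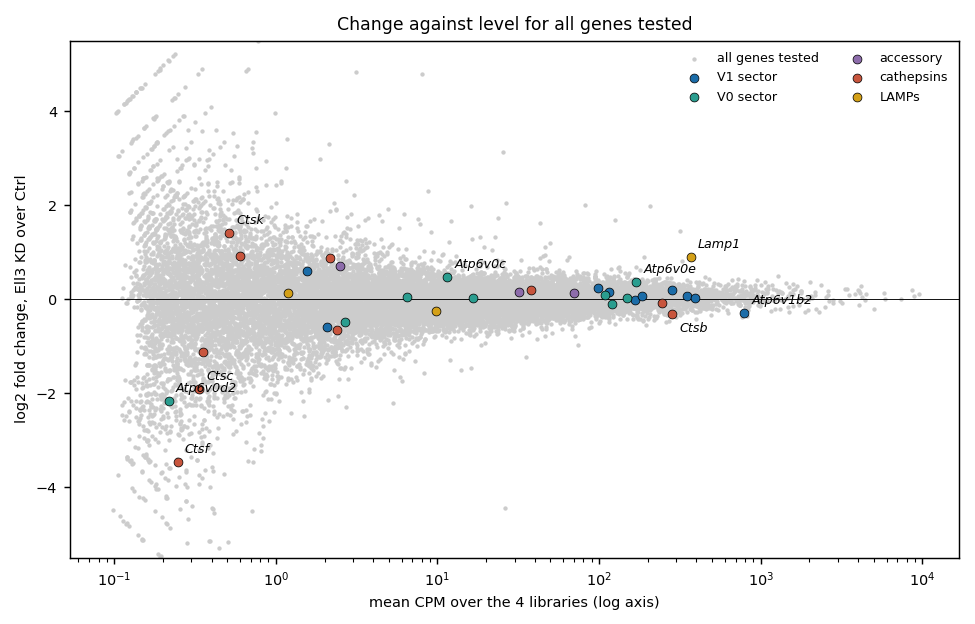
Log2 fold change, Ell3 KD over Ctrl, against mean CPM (log axis) for all 17879 genes tested (grey) and for the 35 tested members (colored by role); 129 genes beyond the vertical range of 5.5 are not drawn. Lamp1 lies above the band of genes of like level, and the lowly counted Ctsf, Atp6v0d2 and Ctsc lie within the wide spread of such genes.

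The surrounding lysosomal genes were read from 6 further lists, which were not tested as sets. Between 36.7% and 60.0% of the tested genes of a list were called. Over all genes tested this was 42.9% (21.1% higher, 21.8% lower), and 52.5% of those at 5 CPM or more. Of 15 genes for assembly and partners of the V-ATPase, 4 were higher and 5 lower, with a median log2 fold change of 0.02. Wdr7, which works with the Dmxl proteins in putting the sectors together, was at 25.7 ± 1.51 CPM in Ctrl and 16.9 ± 0.171 CPM in Ell3 KD, and it fell by 0.61 (SE 0.07; edgeR adjusted p = 1.51e-07). Tldc1, a TLD-domain gene, fell by 0.81 (SE 0.09; edgeR adjusted p = 1.75e-07), while the assembly factor gene Ccdc115, at 303 and 306 CPM, did not pass (edgeR adjusted p = 0.723).

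Of 30 other lysosomal membrane and transporter genes, 28 were tested, 2 were higher and 12 lower, with a median of -0.21. The log2 fold changes of the 28 ran from -0.61 (Scarb2, not called) to 0.41 (Tpcn1, not called), a range that ends below the 0.89 of Lamp1. Laptm4b, the most abundant, was at 1443 and 1385 CPM in Ctrl and 1216 and 1231 CPM in Ell3 KD (log2 fold change -0.21 ± 0.03, SE; edgeR adjusted p = 1.26e-06). Tmem192 fell by 0.49 (SE 0.08; edgeR adjusted p = 2.93e-05).

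Of 40 genes for lysosomal hydrolases and their activators, 35 were tested, 8 were higher and 11 lower, with a median of -0.05. Lgmn, the asparaginyl endopeptidase that processes several cathepsins, was at 167 and 173 CPM in Ctrl and 202 and 207 CPM in Ell3 KD (log2 fold change 0.27 ± 0.04, SE; edgeR adjusted p = 1.20e-06). Man2b1, a lysosomal mannosidase, rose by 0.55 (SE 0.10; edgeR adjusted p = 8.70e-05). In the list of sorting and fusion genes, 3 of 30 were higher and 8 lower, with a median of -0.10. The retromer gene Vps29 rose by 0.25 and the HOPS gene Vps11 fell by 0.29 (edgeR adjusted p = 1.47e-06 and 7.10e-05).

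Of 18 tested genes for the regulation of lysosomal genes and for the Ragulator and Rag complex, 7 were higher and 3 lower, with a median of 0.10. Lamtor5 of Ragulator rose by 0.30 (SE 0.04; edgeR adjusted p = 2.37e-07), and Ywhab, a 14-3-3 gene, fell by 0.28 (SE 0.03; edgeR adjusted p = 4.22e-07). Among the factors that bind E-boxes of lysosomal genes, singled out after their values were seen, Tfe3 was lower, at 91.2 and 84.5 CPM in Ctrl and 70.5 and 70.2 CPM in Ell3 KD (log2 fold change -0.32 ± 0.04, SE; edgeR adjusted p = 2.63e-06). Mitf was higher, at 6.43 and 6.56 against 7.57 and 9.25 CPM (0.37 ± 0.12, SE; edgeR adjusted p = 0.0167). Tfeb was too low to be tested, at 0.190 and 0.0761 CPM.

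Of 15 genes in the list of cysteine protease inhibitors and related genes, 4 were tested and 2 were higher. Cst3, which encodes the secreted cathepsin inhibitor cystatin C, was at 80.0 and 79.3 CPM in Ctrl and 109 and 111 CPM in Ell3 KD (log2 fold change 0.47 ± 0.04, SE; edgeR adjusted p = 1.19e-09). Fetub, a fetuin of the cystatin superfamily that keeps the zona pellucida from hardening, was at 102 and 97.5 CPM in Ctrl and 132 and 127 CPM in Ell3 KD (0.38 ± 0.04, SE; edgeR adjusted p = 3.28e-08). Both genes stood higher in both Ell3 KD libraries. Fetub stands in this list by its superfamily and was not taken as an inhibitor of cathepsins. Per kb, the level of Ctsb was 0.729 and 0.698 times that of Cst3 in Ctrl and 0.421 and 0.411 times in Ell3 KD, and this ratio was not tested.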

How the data were processed

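The deposited values are raw counts per gene symbol for 4 libraries of polyadenylated RNA, amplified by Smart-seq2 and sequenced as paired 150-base reads per the labels' protocols. FastQC 0.11.5, HISAT2 2.2.1.0 and featureCounts were used with mm10, per the submitters' processing notes; the sources used here do not give annotation, strand or multi-mapping settings, so overlapping and duplicated genes are uncertain.

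One model without covariates over the 4 libraries was fitted to the counts (edgeR 4.0.16 in R 4.3.3, filterByExpr and TMM, then glmQLFit and a two-sided glmQLFTest), with Benjamini-Hochberg adjustment over 17879 genes and a threshold of 0.05. Standard errors are the log2 fold change over the square root of F. Coordinates, lengths and exon overlaps came from GENCODE M21 (GRCm38), promoters from RefSeq (GRCm38.p6). The fit was tested on simulated counts for Ell3 KD against Ctrl over 17879 genes and recovered 56.7%, 65.7% and 95.5% of genes changed 1.5-, 2- and 4-fold. Only 200 genes were changed in the simulation, while 7676 were called in the data. The adjustment therefore works at another cutoff, and these shares may not carry over to the data.

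Alternatives were DESeq2 1.42.0, limma-voom 3.58.1, other scalings and filters, thinned counts, an assumed coefficient of variation, a replicate block and leaving out each library. Members, lists and alternatives were chosen with earlier results of these data known. All members could be named; from each list, the 2 genes with the highest mean CPM and the 2 called genes with the smallest p; also Ell3 and Tcirg1. Overlapping genes, single markers, Tfe3, Mitf, Tfeb, Scarb2, Tpcn1, Cts7 and Cts8 were named after their values were seen. Library values in CPM are TMM-scaled. Values given as counts are raw and not adjusted for the deeper Ell3 KD libraries.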

Additional observations from a re-analysis of the deposited data

How the results depend on the processing

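Of the 23 calls, 2 (Lamp1 and Ctsf) held under all 12 alternatives, and 9 held under all but the assumed coefficient of variation of 0.2 (those and Atp6v0c, Atp6v0e, Atp6v1b2, Atp6v1e1, Atp6v1f, Ctsb and Ctsd). Ctsf entered the test through the Ctrl libraries alone, which favours a call. With that assumed coefficient 2 members were higher and 3 lower, in place of 14 and 9, and 1964 genes were called in all. DESeq2 called 10 members higher and 4 lower. The higher ones include Atp6v1e2, which edgeR did not test, and 10 of the 23 calls were lost. The lost calls were those of Atp6ap1, Atp6ap2, Atp6v0a2, Atp6v0d1, Atp6v0d2, Atp6v1c2, Atp6v1g2, Ctsa, Ctsh and Ctsk. With 1 library left out, between 8 and 11 members were higher and between 4 and 8 lower; the lone library of a group is then assumed to vary like the other group. Ell3 stayed lower throughout. No called member changed direction.

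Among members without a call the sign turned with library totals only for Atp6v0a1 (-0.021), Atp6v0a4 (-0.0032), Atp6v0b (-0.024) and Atp6v1g1 (-0.024). With 1 library left out it also turned, within ranges of -0.055 to 0.089 for Atp6v0a1, -0.013 to 0.083 for Atp6v0a4, -0.025 to 0.060 for Atp6v0b, -0.044 to 0.0041 for Atp6v1a, -0.00038 to 0.029 for Atp6v1g1 and -0.23 to 0.60 for Lamp5. The cause was not tested. With the replicate block, 15 members were higher and 11 lower (Atp6v1c1, Atp6v0e2 and Lamp2 gained). The replicate numbers are not known to pair the samples: same-numbered deviations from the group means correlated at 0.03 over genes.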

Other observations

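Genes that carry a cathepsin name or fold but lie outside the symbol rule were also read. Cts3, of the rodent placental cathepsin cluster, was at 2.71 and 3.22 CPM in Ctrl and 2.81 and 2.69 CPM in Ell3 KD and overlapped between groups (edgeR adjusted p = 0.661). Cts7 and Cts8 of that cluster had no count in any library. Tinagl1, a secreted protein with an inactive cathepsin-like domain, was at 0.0438 and 0.0608 CPM in Ctrl and 0.192 and 0.325 CPM in Ell3 KD (log2 fold change 2.23 ± 0.79, SE; edgeR adjusted p = 0.0248); it had 2 and 3 counts in Ctrl and entered the test through the Ell3 KD libraries alone, which favours a call.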
